A study of Rattus norvegicus with 11 samples.

Results

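miR-143 and miR-145 are microRNAs (miRNAs) made from neighbouring hairpins, and both hairpins yield a 5p and a 3p arm. The 4 arms, miR-143-3p, miR-143-5p, miR-145-5p and miR-145-3p, were taken by name from the sense rows of a table of 950 rows, which held 898 distinct features after each name was counted once. Small RNA was sequenced from pancreatic islets of untreated Sprague-Dawley rats, 6 libraries from adult males aged 3 months (12 weeks) and 5 libraries from 10-day-old pups (P10, 1.5 weeks). As the sex of the P10 rats was not analysed here, sex and age cannot be told apart. The libraries held between 1430412 and 2841550 miRNA counts in adults and between 1594961 and 4468745 at P10. All 4 arms passed the filter on low counts, with 457 features in all. Levels are CPM, counts scaled to a common library size with TMM (trimmed mean of M values) factors, and each difference is adult minus P10 on the log2 scale, so a negative value means lower in adults.

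miR-143 and miR-145 are transcribed together and are known as miRNAs of smooth muscle, where serum response factor and myocardin drive them and where they favour the contractile over the proliferating state. They are also found in fibroblasts and in pericytes, the contractile cells around capillaries. An islet consists mainly of endocrine cells, with capillaries, their pericytes and some arteriolar smooth muscle running through it. In whole islets, fewer cells of such a type and less of the miRNA per cell cannot be told apart.

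The mature sequences are shown because the results below compare arms that come from the same transcript but carry different seeds, the bases 2 to 8 with which a miRNA pairs with its targets. They are RefSeq sequences of the GRCr8 assembly, written 5′ to 3′ with the seed in capitals.
miR-143-3p: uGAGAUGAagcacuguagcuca
miR-143-5p: gGUGCAGUgcugcaucucugg
miR-145-5p: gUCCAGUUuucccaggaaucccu
miR-145-3p: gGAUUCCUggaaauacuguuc
The 4 seeds differ from each other, and none is shared with another of the 693 mature names in that table. The hairpins are shown to give the place of both arms, which are in capitals.
Mir143: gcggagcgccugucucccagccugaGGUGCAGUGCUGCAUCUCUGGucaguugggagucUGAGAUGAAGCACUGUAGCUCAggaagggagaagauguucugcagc
Mir145: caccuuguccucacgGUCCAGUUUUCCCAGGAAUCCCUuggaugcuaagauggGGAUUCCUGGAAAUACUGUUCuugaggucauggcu
In GRCr8 both lie on the minus strand of chromosome 18, Mir143 at 57371349 to 57371453 and Mir145 at 57369983 to 57370070. Both fall within Carmn (57368191 to 57389112), a long non-coding RNA gene that is also called Mir143hg. In the authors' table, on Rnor_5.0, miR-143-3p lies at 56200210 to 56200231 and miR-145-5p at 56198870 to 56198892 of chromosome 18, also on the minus strand. They are 1317 bases apart in both assemblies, and the lengths of the 4 arms in the table equal those of the sequences above.

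miR-143-3p, the arm that carries nearly all reads of the locus, overlapped between the ages. It was at 16849 CPM in the lowest, a median of 26165 CPM and 57172 CPM in the highest adult library. At P10 it was at 30826, 58740, 45039, 32212 and 38241 CPM (replicates 1, 3, 4, 5 and 6). Of the 6 adult libraries 3 lay below every P10 library, adult replicates 2 and 3 lay near the lowest of them, and adult replicate 1 lay near the highest. The means were 29198 ± 15068 CPM in adult libraries (SD, n = 6) and 41012 ± 11395 CPM in the P10 libraries (SD, n = 5), with a log2 difference of -0.49 ± 0.29 (SE; edgeR adjusted p = 0.174). Without adult replicate 1 the difference was -0.79 and passed the test (edgeR adjusted p = 0.00957), and with library totals in place of TMM it was -0.76 (edgeR adjusted p = 0.0188). Among all features it ranked between 5 and 11 by counts in the adult libraries and between 6 and 8 at P10.

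miR-143-5p, the other strand of the same hairpin, was scarce. It had between 4 and 26 counts in adult libraries and between 18 and 59 counts at P10. In CPM it was at a lowest of 2.75, a median of 7.37 and a highest of 13.5 in adults, and at 6.27, 12.1, 15.0, 15.1 and 12.3 at P10 (same replicate order). The groups overlapped, with P10 replicates 1, 3 and 6 inside the adult range. The log2 difference was -0.63 ± 0.32 (SE; edgeR adjusted p = 0.114). It passed without P10 replicate 1 (-0.80, edgeR adjusted p = 0.0393) and with library totals alone (-0.89, edgeR adjusted p = 0.0275).

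miR-145-5p, the main arm of miR-145, was lower in every adult library than in any P10 library. It was at 83.6 CPM in the lowest, a median of 130.4 CPM and 265.3 CPM in the highest adult library. At P10 it was at 569.3, 366.9, 325.7, 291.4 and 331.3 CPM in the same replicate order. Adult replicates 1 and 2 (257.3 and 265.3 CPM) came closest to the P10 libraries, and P10 replicate 1 stood well above the others of its age. The means were 160.7 ± 80.2 CPM in adult libraries (SD, n = 6) and 376.9 ± 110.8 CPM at P10 (SD, n = 5), a 2.35-fold fall (log2 difference -1.23 ± 0.31 SE; edgeR adjusted p = 0.00484). Without P10 replicate 1 the difference was -1.03 (edgeR adjusted p = 0.0163).

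miR-145-3p, the lesser arm, also fell. It was at a lowest of 31.6, a median of 52.1 and a highest of 93.9 CPM in adults. At P10 it was at 78.9, 164.6, 110.2, 86.6 and 101.6 CPM. Of the 6 adult libraries 5 lay below every P10 library, and only adult replicate 1 reached the P10 range. It averaged 54.9 ± 23.8 CPM in adult libraries (SD, n = 6) and 108.4 ± 33.8 CPM in the P10 libraries (SD, n = 5), with a log2 difference of -0.98 ± 0.28 (SE; edgeR adjusted p = 0.0104).

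**Figure D1:**
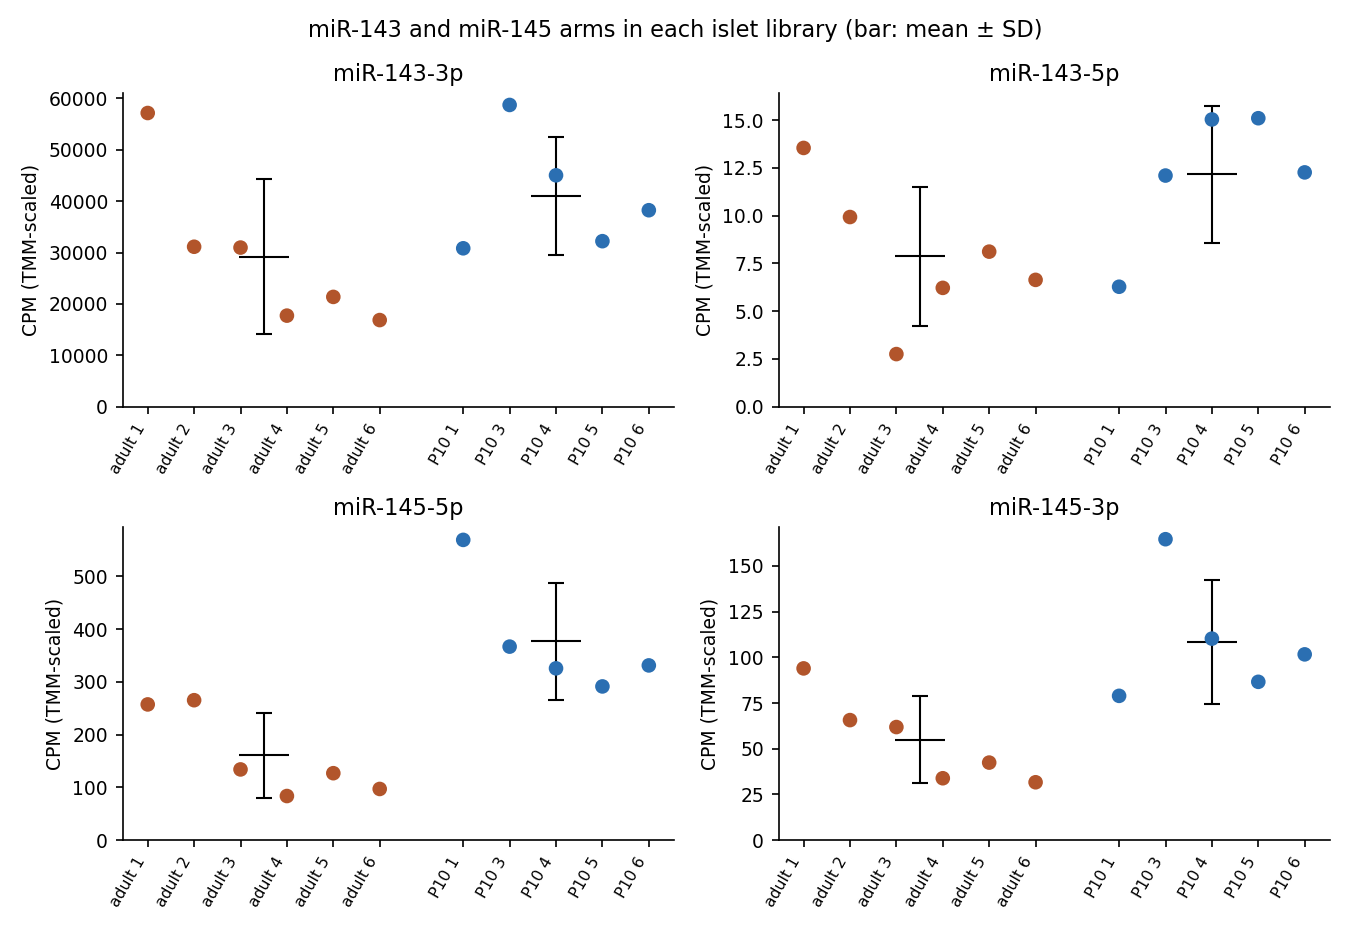
TMM-scaled CPM (vertical axes, from 0) of each arm in each library, the 6 adult libraries to the left of the 5 P10 libraries; points are libraries, and the bars give the mean ± SD of each age. Adult replicate 1 stands above the other adults for miR-143-3p (57172 CPM), and P10 replicate 1 above the other pups for miR-145-5p (569.3 CPM).

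Both miR-145 arms and neither miR-143 arm thus passed the test, all with lower means in adults. Among the 457 features tested, 29.5% were called lower in adults (135) and 21.2% higher (97), and 2 of 4 arms is too few to set apart from that share. The CPM ranges of the ages did not overlap, with adults lower, for 1 of the 4 arms (miR-145-5p) and for 16.4% of all features. The median log2 difference over all features was -0.11. The scaling sets how many features count as lower. With library totals alone the differences shifted by a median of -0.27 and 187 features were lower and 54 higher (22.4% of calls higher, against 41.8%), while with upper-quartile scaling they shifted by 0.16, with 103 lower and 127 higher (55.2%). All 4 arms kept a negative difference in each alternative that gave a value, and both miR-145 arms passed in each.

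**Figure D2:**
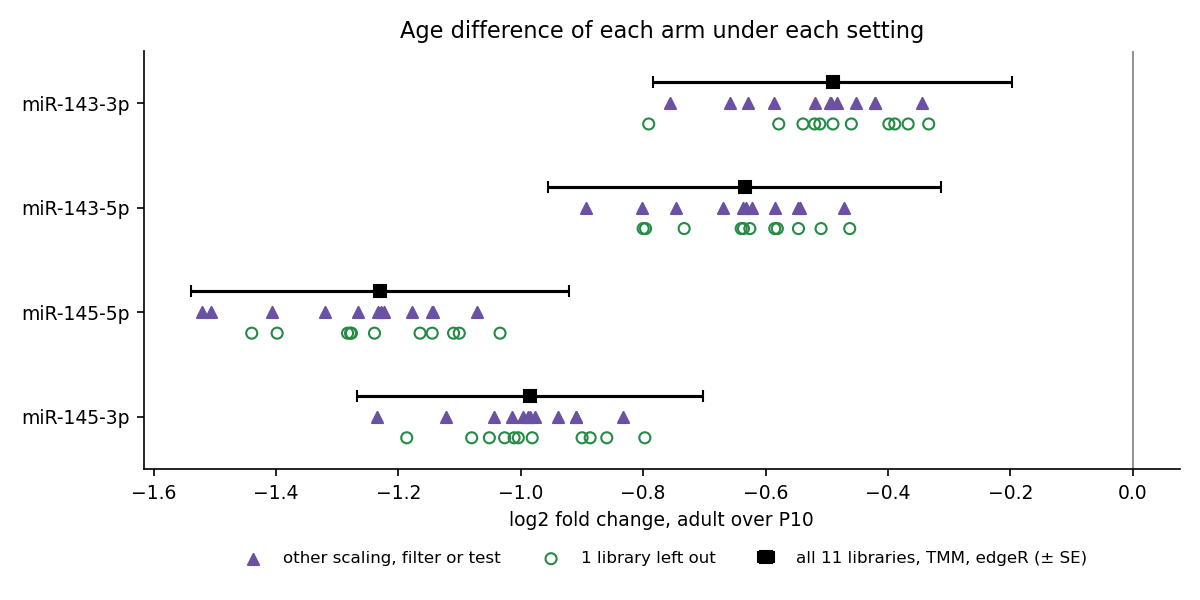
Log2 fold change of adult over P10 (horizontal axis) for each arm; squares are the value over 11 libraries with its SE, triangles other scalings, filters or tests, and open circles the value with 1 library left out. Every value lies below 0, and the circle farthest left for miR-143-3p (-0.79) is the one without adult replicate 1.

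As a part of each library, the 4 arms took between 1.62% and 4.75% of the counts in adults and between 3.80% and 5.53% at P10. The exact (Clopper-Pearson) 95% interval of each such share was at most 0.0710 percentage points wide and covers counting error only. The share was below every P10 library in 5 of the 6 adult libraries, the exception being adult replicate 1. It uses library totals, under which the differences of all features shifted by a median of -0.27. With TMM scaling, miR-143-3p lay below every P10 library in 3 of the 6 adult libraries and did not pass (edgeR adjusted p = 0.174). miR-143-3p held between 98.9% and 99.4% of the counts on the 4 arms in adults and between 97.9% and 99.1% at P10. Ligation and amplification favour some small RNAs, so the ratio of miR-143 to miR-145 reads within a library is not a ratio of molecules.

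Between libraries of the same age, miR-143-3p and miR-145-3p were high and low together. Over the 6 adult libraries, miR-143-3p and miR-145-3p had the same order, with Pearson r = 0.985 (exact permutation p = 0.00139, adjusted p over 6 pairs of arms = 0.00833) and Spearman rho = 1 (exact permutation p = 0.00278, adjusted p = 0.0167). Leaving out adult replicates 1 and 6, the farthest from the median of miR-143-3p, left r = 0.997. The adjusted p was 0.05 without adult replicates 1, 4, 5 or 6 (exact permutation over 5 libraries, r from 0.982 to 0.998). Over 5 libraries, a pair that alone has the smallest possible p cannot go lower after adjustment. miR-143-3p and miR-145-5p gave r = 0.858 (exact permutation p = 0.0236, adjusted p = 0.0472) and rho = 0.886 (exact permutation p = 0.0333, adjusted p = 0.0667), with r = 0.804 without the same libraries. miR-145-5p and miR-145-3p gave r = 0.899 (exact permutation p = 0.0167, adjusted p = 0.0472) and rho = 0.886 (exact permutation p = 0.0333, adjusted p = 0.0667), with r = 0.845 without adult replicates 1 and 2. Both of these pairs lost their call without adult replicates 1, 4, 5 or 6 (exact permutation over 5 libraries, adjusted p from 0.0750 to 0.183). For the 3 pairs with miR-143-5p, r lay between 0.341 and 0.576 and the smallest adjusted p was 0.354 (exact permutation). That arm had only 4 counts in adult replicate 3, and without this library its 3 correlations were between 0.927 and 0.986. Without adult replicate 1 they were -0.22 with miR-143-3p, -0.16 with miR-145-3p and 0.35 with miR-145-5p, so they rest on single libraries. All values of a library share its depth and scaling. No correlation is given for the 5 P10 libraries, as 6 were taken as the fewest for a main result. The values over fewer adult libraries only show how the main ones change. At P10, P10 replicate 3 was highest and P10 replicate 1 lowest in both miR-143-3p and miR-145-3p, whereas P10 replicate 1 was highest in miR-145-5p.

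**Figure D3:**
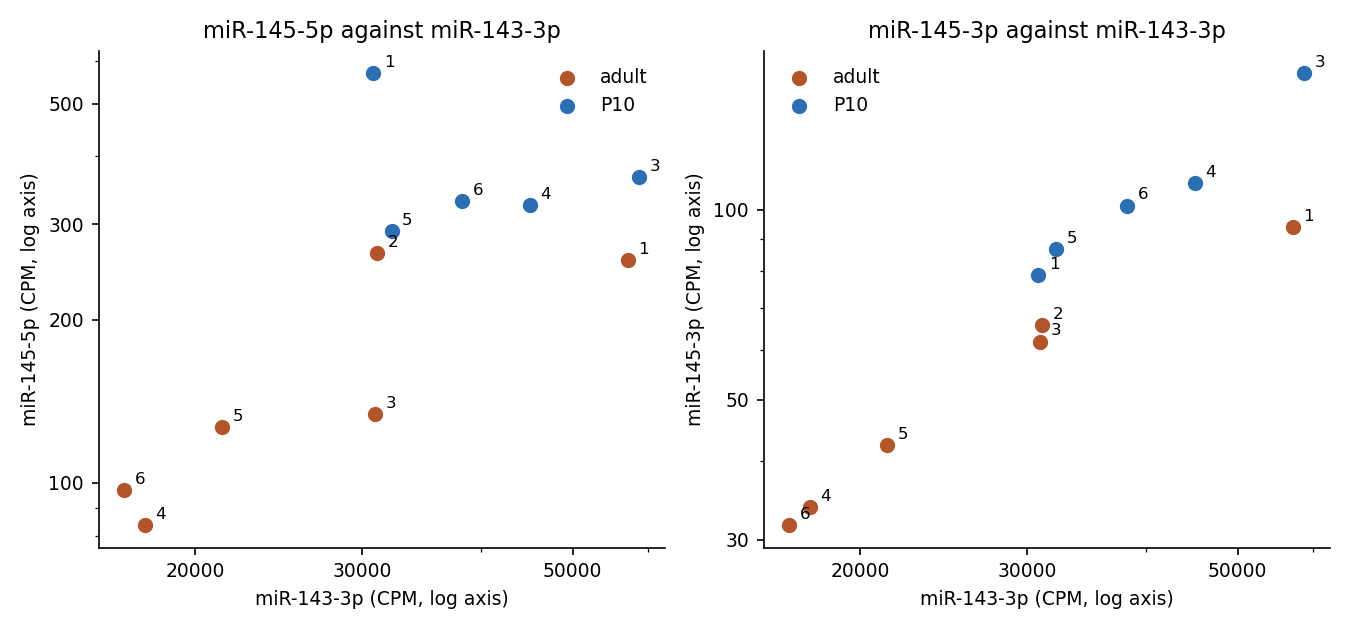
CPM of miR-145-5p (left) and miR-145-3p (right) against CPM of miR-143-3p, log axes; each point is a library with its replicate number. In the right panel the libraries of each age follow a line, with the P10 points above the adult points, and in the left panel P10 replicate 1 (569.3 CPM of miR-145-5p) stands off from the rest.

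Within a library, the balance between miRNAs does not depend on the scaling. The ratio of miR-143-3p to miR-145-5p was between 117.0 and 229.7 in adults and between 54.1 and 159.7 at P10. The mean log2 ratio was 7.51 ± 0.36 in adult libraries (SD, n = 6) and 6.76 ± 0.60 in P10 libraries (SD, n = 5), and the difference was 0.74, with 6 of 6 adult libraries above the P10 mean (exact permutation test, two-sided, 462 splits: p = 0.0195, adjusted over 7 ratios p = 0.0273). The call ended without P10 replicate 1 (0.49, adjusted p = 0.0667, exact permutation) and without adult replicates 1, 3 or 4 or P10 replicates 5 or 6 (differences from 0.68 to 0.76, adjusted p from 0.0533 to 0.0556), each a test over fewer splits. For miR-145-3p, a ratio chosen after its values were seen and not tested, miR-143-3p exceeded it 468.5 to 603.5 times in adults and 355.1 to 405.7 times at P10, with no overlap. By miR-145-5p, 5 of the 6 adult libraries lay above every P10 library, and adult replicate 2 (117.0) lay within the P10 range.

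The use of the 2 arms of a hairpin was compared by the log2 ratio of 5p to 3p. miR-145 had 2.17 to 4.04 5p counts per 3p count in adults and 2.23 to 7.21 at P10, where P10 replicate 1 had 7.21 and the next highest 3.37. Its log2 ratio was 1.50 ± 0.31 in adult libraries (SD, n = 6) and 1.80 ± 0.63 in P10 libraries (SD, n = 5), and the difference was -0.30 ± 0.26 (SE; limma adjusted p over 127 hairpins = 0.417); without P10 replicate 1 it was -0.038 (limma adjusted p = 0.942). For miR-143 there were 2540 to 11265 3p counts per 5p count in adults and 2134 to 4913 at P10, and the difference of the log2 5p to 3p ratio was -0.06 ± 0.31 (SE; limma adjusted p = 0.907). Neither hairpin was among the 25.2% (32) of 127 hairpins whose arm ratio passed.

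Other miRNAs of stromal and vascular cells were set beside the pair to show where it differs. miR-199a-3p, a miRNA of fibroblasts and other mesenchymal cells, was at 129.1 CPM in the lowest, and 559.5 CPM in the highest adult library, adult replicate 1. At P10 it was at 1197, 1241, 1326, 1170 and 1251 CPM. It fell 4.86-fold (log2 difference -2.28 ± 0.30 SE; edgeR adjusted p = 3.59e-05), more than either member. The log2 ratio of miR-143-3p to miR-199a-3p was 6.86 ± 0.32 in adult libraries (SD, n = 6) and 5.01 ± 0.34 in P10 libraries (SD, n = 5), and the difference was 1.85 with no overlap (exact permutation p = 0.00216, the smallest these splits can give, adjusted p = 0.00758). The ratio of miR-145-5p to miR-199a-3p was higher in adults by 1.11 (exact permutation p = 0.0108, adjusted p = 0.0189), with all 6 adult libraries above the P10 mean. At P10, the coefficient of variation (CV) between libraries was 27.8% for miR-143-3p and 4.82% for miR-199a-3p, while in adults the values were 51.6% and 60.2%, and 29.7% and 21.6% without adult replicate 1. Without P10 replicate 3 the value of miR-143-3p at P10 was 17.8%, and without P10 replicate 4 that of miR-199a-3p was 3.11%.

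miR-221-3p, a miRNA of endothelium and proliferating smooth muscle, fell 2.32-fold (40.7 ± 10.3 CPM in adults, n = 6, and 94.1 ± 18.2 CPM at P10, n = 5, SD; edgeR adjusted p = 0.000109). The ratio of miR-145-5p to it was 2.54 to 6.45 in adults and 3.68 to 4.51 at P10, a log2 difference of -0.12 (exact permutation p = 0.641, adjusted p = 0.641). The ratio of miR-143-3p to it was higher in adults by 0.62 (exact permutation p = 0.0563, adjusted p = 0.0657), and passed against the other arm, miR-221-5p (0.89, exact permutation adjusted p = 0.00505). Against miR-221-3p it passed without adult replicate 6 (0.74, exact permutation adjusted p = 0.0370) or P10 replicate 3 (0.77, exact permutation adjusted p = 0.0278). It did not pass with any other library left out. miR-375-3p, the leading miRNA of the endocrine cells, itself rose by a log2 difference of 1.01 (edgeR adjusted p = 8.67e-06). Relative to miR-375-3p, both members were lower in adults, which includes this rise. The ratio of miR-143-3p to it was 0.0580 to 0.176 in adults and 0.194 to 0.519 at P10, a log2 difference of -1.60 (exact permutation p = 0.00433, adjusted p = 0.0101). Against the scarce other arm, miR-375-5p, it was -0.89 and did not pass (exact permutation adjusted p = 0.199). That of miR-145-5p differed by -2.34 (exact permutation p = 0.00216, adjusted p = 0.00758). miR-214 and miR-126 were not analysed here.

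**Figure D4:**
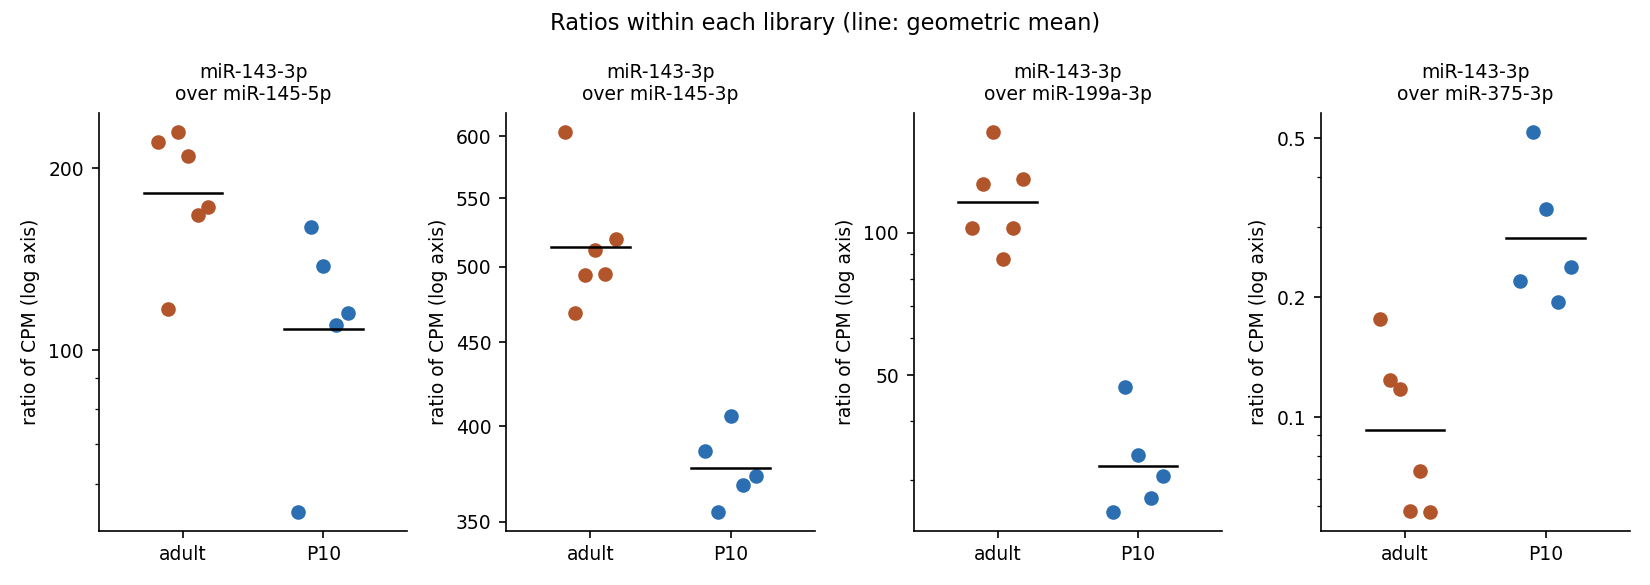
Ratios of CPM within each library (log axes), adult libraries to the left of P10 libraries in each panel; points are libraries and lines geometric means. The ages separate for the ratios of miR-143-3p to miR-145-3p, miR-199a-3p and miR-375-3p, and overlap for its ratio to miR-145-5p.

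Adult libraries differed among themselves in these miRNAs more than in most others. In adults the CV of miR-143-3p (51.6%) was above that of 96.1% of the 179 features of at least 100 CPM, whose median CV was 14.8%. Without adult replicate 1 the CV of miR-143-3p was 29.7%, above that of 88.3% of these features (median 12.7%). The CV of miR-145-5p was 49.9% and that of miR-145-3p 43.3%. With 79.2 CPM on average over all libraries, miR-145-3p lay below the 100 CPM limit of the compared features, so its CV has no like set here. At P10 the CVs were 27.8%, 29.4% and 31.1%, against a median of 17.9%. Of these, the CV of miR-145-5p was 9.40% without P10 replicate 1, and without P10 replicate 3 those of miR-143-3p and miR-145-3p were 17.8% and 15.0%. The endocrine miR-375-3p did not run one way with them. Adult replicate 1, highest in miR-143-3p, also held the most miR-375-3p of its age (325026 CPM), while P10 replicate 3 held the least of its age (113156 CPM).

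Marker miRNAs of the cells an islet preparation can hold were read as lists, each with its summed level in the same libraries; the counts below stand beside 29.5% of all 457 features called lower in adults and 21.2% called higher. Other vascular smooth muscle miRNAs fell in 9 of 12 tested arms and rose in 2 (median log2 difference -0.93, against -0.11 over all features), with summed levels of 12217 to 16749 CPM in adults and 17620 to 27069 CPM at P10. Of these, miR-21-5p, which is induced in vascular injury and fibrosis, fell 3.15-fold to 4637 ± 1066 CPM (SD, n = 6) in adults, against 14599 ± 4094 CPM at P10 (SD, n = 5; edgeR adjusted p = 1.41e-05). Most of the summed level of this list came from miR-21-5p and miR-26a-5p, the latter at 7916 CPM on average in adults and 6072 CPM at P10. The list counts both arms of a hairpin, and they did not always move alike (arms named after their values were seen). miR-24-3p rose 1.77-fold (edgeR adjusted p = 0.000773) while the scarcer miR-24-5p fell. miR-125b-5p had a log2 difference of -0.0046 (edgeR adjusted p = 0.983) while the scarcer miR-125b-3p fell. miR-26a-5p rose 1.30-fold (edgeR adjusted p = 0.0151). It no longer passed with library totals (log2 difference 0.12, edgeR adjusted p = 0.456), with the replicate block (edgeR adjusted p = 0.0675) and without adult replicate 1 and P10 replicate 3, the 2 libraries highest in miR-143-3p, left out after seeing the data (edgeR adjusted p = 0.0549). The mesenchymal list fell in 3 of 6 tested arms, both arms of miR-199a and miR-152-5p, and rose in 1, miR-152-3p (median -0.30; the miR-152 arms are named after their values were seen), with summed levels of 886.0 to 1621 CPM in adults and 2317 to 2599 CPM at P10. In that list miR-140-3p was at 458.0 ± 65.2 CPM in adult libraries (SD, n = 6) and 439.7 ± 28.8 CPM at P10 (SD, n = 5; edgeR adjusted p = 0.700), and miR-199b was not analysed here. Adult replicate 1 was highest of the adults on this list as it was in miR-143-3p (1621 CPM summed). Of the 7 names on the striated muscle list 3 were read, miR-133b, miR-208b and miR-499, while miR-1, miR-133a, miR-206 and miR-208a were not analysed here. The arms read were scarce, with sums of 10.7 to 15.3 CPM in adults and 3.63 to 10.8 CPM at P10, and their only tested arm, miR-499-5p, rose (log2 difference 0.73, edgeR adjusted p = 0.0307). That call was lost with library totals (0.48, edgeR adjusted p = 0.130), with the replicate block (0.71, edgeR adjusted p = 0.0675), without the 2 libraries highest in miR-143-3p and without adult replicates 2, 4 or 5 or P10 replicate 6 (edgeR adjusted p from 0.0521 to 0.0619).

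Of the leukocyte list 1 of 4 tested arms fell, miR-150-5p, 2.79-fold (131.6 CPM on average in adults and 367.4 CPM at P10; edgeR adjusted p = 0.00156), and 0 rose (0 at an unadjusted p under 0.05, 0 with limma-voom and 1 with DESeq2). miR-142-5p had a log2 difference of -0.71 (edgeR adjusted p = 0.162), and the median of the list was -0.53. Its sums were 248.9 to 832.3 CPM in adults and 681.0 to 1427 CPM at P10. Of the 2 tested erythroid arms 0 passed (also 0 at an unadjusted p under 0.05, with limma-voom and with DESeq2), miR-451-5p with a log2 difference of -0.32 (edgeR adjusted p = 0.505) and miR-144-5p with 0.10 (edgeR adjusted p = 0.856), with sums of 14.5 to 63.7 CPM in adults and 24.2 to 72.3 CPM at P10. The acinar list rose in 2 of 3 tested arms (median 1.36; 28.6 to 127.1 CPM in adults and 22.2 to 37.7 CPM at P10), miR-217-5p by 1.96 (edgeR adjusted p = 0.000805) and miR-216a-5p by 1.36 (edgeR adjusted p = 0.0259). The call of miR-216a-5p was lost with limma-voom (0.99, limma-voom adjusted p = 0.107), with library totals, without adult replicates 3 or 6 or P10 replicate 1 and without the 2 libraries highest in miR-143-3p (1.08 to 1.26, edgeR adjusted p from 0.0541 to 0.0881). The endocrine list rose in 5 of 7 tested arms (median 1.01; 252668 to 326009 CPM in adults and 113569 to 166537 CPM at P10), among them miR-375-3p by 1.01 (edgeR adjusted p = 8.67e-06) and miR-7a-1-5p by 1.30 (edgeR adjusted p = 0.000762). Of the 4 tested arms of the neuron and glia list 0 passed in edgeR (0 at an unadjusted p under 0.05 and with limma-voom, and 1, higher in adults, with DESeq2; median 0.16), with miR-128-3p at 0.30 (edgeR adjusted p = 0.135) and miR-128-2-3p at 0.02 (edgeR adjusted p = 0.954), and sums of 113.0 to 186.2 CPM in adults and 138.0 to 166.4 CPM at P10. Of the names on the lists, 2 of 3 erythroid, 3 of 4 neuron and glia and 9 of 10 vascular smooth muscle names were read. The rest of those names were not analysed here. The part of any of these cells in the fall of miR-145 was not tested.

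Features whose levels varied most like the pair were ranked by the Pearson r of log2 CPM after the mean of each age was subtracted, over the 11 libraries, as a description with no test. With miR-143-3p the ranking gave miR-130a-3p (0.974), miR-100-5p (0.954), an antisense feature at miR-3557-5p (0.941), miR-24-5p (0.928), miR-10b-5p (0.921), miR-10a-5p (0.920), an antisense feature at miR-3555-5p (0.920) and the unnamed ENSRNOT00000073480_-5p (0.914). The median over 456 features was 0.03, and the arm miR-145-3p stood at 0.983. Adult replicate 1, highest of its age in miR-143-3p, was also highest of its age in each of the 8. P10 replicate 3, likewise highest in miR-143-3p, was highest of its age in all but the antisense feature at miR-3555-5p. How far these r values rest on the 2 libraries was not tested. Of these 8, all but the antisense feature at miR-3555-5p were called lower in adults, against 29.5% of all 457 features. The antisense feature at miR-3557-5p lost its call in 5 alternatives (-0.34 to -0.21, edgeR adjusted p up to 0.199), and that at miR-3555-5p passed with library totals (edgeR adjusted p = 0.0259) and without adult replicate 1 (edgeR adjusted p = 0.0338). miR-130a-3p was at 415.3 CPM on average in adults and 869.0 CPM at P10 (log2 difference -1.07 ± 0.15 SE; edgeR adjusted p = 5.51e-05). With miR-145-5p the ranking gave miR-204-5p (0.890), miR-195-5p (0.866), miR-23a-3p (0.826), miR-221-3p (0.821), ENSRNOT00000073318_-3p (0.807), miR-18a-3p (0.799), miR-125b-5p (0.788) and miR-412-3p (0.778). The first of them, miR-204-5p, was called higher in adults (log2 difference 0.51, edgeR adjusted p = 0.0245). This call was lost with library totals (0.25, edgeR adjusted p = 0.274) and without P10 replicate 4 (0.48, edgeR adjusted p = 0.0565). miR-195-5p (-0.09, edgeR adjusted p = 0.724) and miR-125b-5p (-0.0046, edgeR adjusted p = 0.983) did not pass, and the others on this list were called lower. miR-143-3p itself stood at 0.635 with miR-145-5p, and the 2 lists of 8 had no name in common. P10 replicate 1, highest in miR-145-5p, was also highest of its age in miR-204-5p (2237 CPM), miR-221-3p (125.5 CPM) and miR-125b-5p (740.1 CPM).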

How the data were processed

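Raw read counts for mature miRNA arms at each locus were deposited by the authors on Rnor_5.0, per the file headers; the submitters' processing notes name rn5, edgeR and DESeq, with no role. Per the labels' protocols, Trizol RNA went into Illumina TruSeq small RNA libraries. For the aligner and counting rules: not given in the sources used here. Series and library tables agreed (0 of 10450 values differed). Libraries are labelled as biological replicates; pooling of animals is not stated, and p-values measure the spread between these libraries.

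A name entered once, with its highest count per library. Age was tested in R 4.3.3 with edgeR 4.0.16 (filterByExpr, TMM, robust quasi-likelihood, Benjamini-Hochberg over 457 features, threshold 0.05). Log2 CPM used a prior count of 2. Arm ratios were tested with limma 3.58.1, and ratios to partner miRNAs by exact permutation. The edgeR and arm ratio steps were also run on simulated counts, and the outcome is not given here. Members and lists were chosen with earlier results of these data known. Named besides the members are the ratio partners, the 2 most abundant tested arms of each list, and the 8 features most like miR-143-3p and like miR-145-5p. Alternatives were other scalings and filters, DESeq2 1.42.0, limma-voom, a replicate block, summed rows, a prior count of 0.5 and each library left out. All 25 pairs of libraries of the same age differed by more than counting noise (a chi-square of 11.7 or more for each degree of freedom).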

Additional observations from a re-analysis of the deposited data

Results flagged for a closer look

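In 4 of 26 groups examined, a library lay far from the others of its age; chance flags about 1 group in 20, and these 4 come from 2 libraries. Adult replicate 1 had 57172 CPM of miR-143-3p, against 31127 CPM in the next adult library. P10 replicate 1 had 569.3 CPM of miR-145-5p, against 366.9 CPM in the next. In the same P10 library miR-145 had a 5p to 3p ratio of 7.15 (of CPM with the prior count of 2, against 7.21 for the raw counts), with 3.34 in the next library, and a ratio of miR-145-5p to miR-199a-3p of 0.476, against 0.296. No cause was tested.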

How the results depend on the processing

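Of 76 results recomputed, 36 kept direction and call (counts and CVs: stayed within 1.5 times) in every alternative, among them the fall of miR-145-5p (-1.44 to -1.03 with 1 library left out) and of miR-145-3p (-1.19 to -0.80). The 36 include list counts of 0 that stayed at 0, some on lists with only 1 or 2 tested arms, which had little room to change. With 1 library left out, miR-143-3p ranged from -0.79 to -0.33 and miR-143-5p from -0.80 to -0.46. With library totals alone miR-143-3p was at -0.76, miR-143-5p at -0.89, miR-140-3p at -0.22, miR-144-5p at -0.15, miR-128-2-3p at -0.23 and the count of higher features at 54. Without the 2 libraries highest in miR-143-3p, a choice made after seeing the data, it was at -0.63 (edgeR adjusted p = 0.0270) and miR-140-3p at -0.039. miR-125b-5p, close to 0, turned to 0.083 with DESeq2 size factors and with DESeq2, 0.16 with upper-quartile scaling, 0.0043 with TMM without the 4 arms and 0.039 with no filter; miR-195-5p turned to 0.063 with upper-quartile scaling and miR-128-2-3p to -0.020 with a mean of at least 10 CPM. With 1 library left out, miR-140-3p ranged from -0.0071 to 0.10, miR-451-5p from -0.60 to 0.073, miR-144-5p from -0.28 to 0.30, miR-128-2-3p from -0.076 to 0.12, miR-195-5p from -0.24 to 0.013 and miR-125b-5p from -0.089 to 0.12. The arm ratio of miR-143 ranged from -0.19 to 0.21 and that of miR-145 from -0.46 to -0.038. The log2 ratio difference of miR-143-3p to miR-145-5p ranged from 0.49 to 0.88, and to miR-221-3p from 0.42 to 0.77. Against the other partner arm it was 0.89 for miR-143-3p and 0.15 for miR-145-5p (miR-221-5p), and -0.89 for miR-143-3p (miR-375-5p, exact permutation adjusted p = 0.199). Adult correlations of miR-143-3p and miR-145-5p (0.840) and of the miR-145 arms (0.891) lost their call with library totals. With an adult library left out, which leaves 5 and so fewer pairings, r of miR-143-3p ranged from -0.22 to 0.98 with miR-143-5p, 0.823 to 0.964 with miR-145-5p and 0.982 to 0.998 with miR-145-3p; that of miR-145-5p and miR-145-3p from 0.852 to 0.949, that of miR-143-5p from 0.347 to 0.927 with miR-145-5p and from -0.16 to 0.986 with miR-145-3p. Apart from the left-out libraries named in the report, the cause of these changes was not tested. With the replicate block, over the 5 shared numbers, miR-143-3p was at -0.66, miR-143-5p at -0.75, miR-145-5p at -1.51, miR-145-3p at -1.12 and miR-144-5p at -0.21; no call of the 4 arms changed. The numbers did not pair the libraries (correlations of deviations from -0.21 to 0.20; 1 of 10 libraries correlated best with its own number). miR-143-5p rests on 4 to 59 counts per library, and features of a few CPM are as thin.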

Other observations

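The ratio of miR-143-3p to miR-130a-3p, the feature most like it from library to library, was chosen after its values were seen and has no test. It was 48.8 to 103.8 in adults and 40.6 to 55.2 at P10. The adult libraries with the lowest ratios were replicates 4 and 6 (48.8 and 49.6), the libraries lowest in miR-143-3p. As miR-143-3p is the numerator and varied more between adult libraries than miR-130a-3p, this is partly built in. For miR-143-3p over miR-145-3p the spread within an age was smaller, with an SD of the log2 ratio of 0.12 in adults (n = 6) and 0.07 at P10 (n = 5), against 0.36 and 0.60 for miR-143-3p over miR-145-5p.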
